A study of Mus musculus with 6 samples.

Results

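The genes described here are 30 genes of cholesterol synthesis and sterol regulation. They were taken by symbol from a list of the pathway and were all found among the 46983 annotated features of the data set. All 30 passed the filter on weakly expressed features that left 15153 for testing. Of the 30 genes, 18 encode enzymes of synthesis, 5 encode the sterol-sensing control of that synthesis, and 7 act in uptake, transport, storage or receptor turnover. RNA was sequenced from oligodendrocytes, the cells that wrap axons in myelin, taken from the brains of FvB/C57BL6 hybrid mice and not cultured. The 3 control libraries carry the genotype label WT. The 3 Qk-KO libraries carry the genotype label Qk-/- and came from Plp-CreERT2;QKLoxP/LoxP mice, in which tamoxifen activates a Cre recombinase that acts where the Plp promoter is active, chiefly in oligodendrocytes and their lineage. Both groups received tamoxifen at 8 weeks of age and were sampled 4 days later. The labels do not give the control mice's floxed or Cre alleles, nor state that each library is a separate animal, so each p-value measures only how far these libraries spread, which may be technical.

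Cholesterol is a major lipid of myelin, and because lipoproteins do not readily cross the blood-brain barrier, brain cells make most of their own. Synthesis starts from acetyl-CoA, runs through mevalonate and isoprenoid intermediates to squalene, and then through lanosterol and a series of ring and side-chain modifications to cholesterol. When sterols are scarce in the endoplasmic reticulum, the escort protein SCAP carries SREBP precursors to the Golgi, where they are cut to release transcription factors that switch on the synthesis genes. When sterols are plentiful, INSIG proteins hold SCAP back. Astrocytes make cholesterol as well, and oligodendrocytes also take it up.

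All values are log2 values per gene and library as the authors scaled them, and every change is the Qk-KO mean minus the WT mean with its standard error from limma (n = 3 libraries per group). A gene is called where the Benjamini-Hochberg adjusted p over all 15153 features is under 0.05. Estimated totals outside ribosomal RNA were 8700000 to 10000000 reads in WT, 13100000 in Qk-KO replicate 1, and 77100000 and 70000000 in Qk-KO replicates 2 and 3. Ribosomal RNA took 59.8% to 64.8% of the signal in the former 4 libraries and 2.23% and 1.88% in the latter 2, which are both Qk-KO. Library type and genotype can therefore be compared only through Qk-KO replicate 1 against the 3 WT libraries, and that contrast, called the replicate 1 contrast, is given beside the main one, with its lone Qk-KO library assumed to vary like the WT libraries. Qk itself, counted over the whole gene, had log2 values of 15.41, 15.67 and 15.31 in WT, against 16.10, 15.62 and 15.30 in Qk-KO (0.21 ± 0.25, adjusted p = 0.567), which does not check the labels because reads outside the deleted part count too.

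Of the 30 genes 9 fell, 3 rose and 18 were not called. Among all tested features 28.6% were called, 14.8% lower and 13.8% higher, so the share of the 30 genes called lower lay above that background and the share called higher below it. Their median change was -0.33, beside 0.03 over all features. The groups did not overlap for 12 of the genes with Qk-KO lower and for 4 with Qk-KO higher, against 21.8% and 24.5% of all features. The falls were in late sterol enzymes (Dhcr7, Msmo1, Sc5d and Tm7sf2), in Insig1, and in uptake, transport and storage (Lrp1, Soat1, Stard4 and Npc1). The rises were in Ebp, Hsd17b7 and Scap. These directions are relative to the authors' scaling. With scaling by library size alone, ribosomal reads enter the total and the median of all genes moves up by 1.06. There 0 of the 9 falls were called by limma (0 also at an unadjusted p under 0.05) and 7 of them had positive values, while the 3 rises kept their call. With library size without ribosomal RNA all 9 kept negative values and 8 were still called lower, all but Tm7sf2. The 3 rises kept their call there too.

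The replicate 1 contrast gave 9 of the 30 genes lower and 0 higher by limma, against 9.37% lower and 6.17% higher over all features. Of these 9 genes, 8 were also called with all libraries, and the additional one was Mvd. Stard4 and the 3 genes that rose with all libraries were not called there. At an unadjusted p under 0.05, 13 genes were lower and 3 higher, the latter being Ebp (0.50), Hsd17b7 (0.46) and Scap (0.36) with adjusted p-values of 0.122, 0.122 and 0.110. A fit of all 6 libraries with library type as a term gives every gene the same change as this contrast, since both low-ribosomal libraries are Qk-KO. It differs in the standard error and is not a separate check. Ebp, Hsd17b7 and Scap were not called there (adjusted p = 0.106, 0.110 and 0.093). The authors' deposited table calls 9 of the genes lower and 5 higher, against 16.4% and 16.5% of the features it tested: the same 12 genes with Mvk and Npc2 added.

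**Figure D1:**
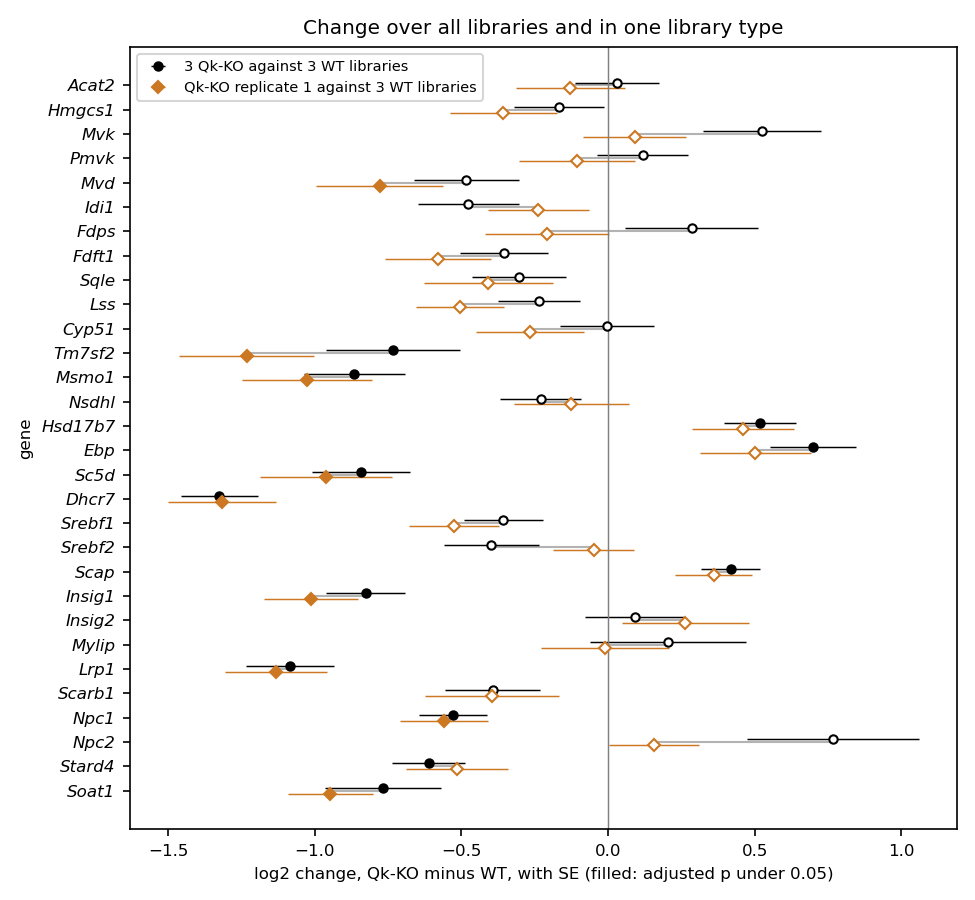
Log2 change of each of the 30 genes with its standard error, for 3 Qk-KO against 3 WT libraries (circles) and for Qk-KO replicate 1 against the same 3 WT libraries (diamonds), filled where the adjusted p is under 0.05, with the authors' scaling. Dhcr7 lies at -1.33 and -1.32 in these contrasts, which share the WT libraries, whereas Npc2 lies at 0.77 and 0.16.

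Markers of other cell types moved with genotype in the same libraries. Over all tested features 14.8% were called lower and 13.8% higher. All 12 oligodendrocyte markers were detected and 7 of them rose, with summed levels of 26302 to 32347 per 1000000 of the signal outside ribosomal RNA in WT and 33346 to 42625 in Qk-KO. Of the 12 astrocyte markers, all 12 fell, with summed levels of 7817 to 8937 in WT and 921 to 1558 in Qk-KO. None of them was at 0, and Slc1a2, a glutamate transporter gene and the most abundant of them by mean normalized count, went from a log2 value of 15.87 to 13.39. All 9 endothelial markers fell (1155 to 1777 in WT and 663 to 822 in Qk-KO) and 6 of 7 mural markers did (733 to 940 and 395 to 489). With library size alone 0 of either list were called and the medians were 0.11 and 0.23, whereas with library size without ribosomal RNA 8 endothelial and 6 mural markers were called lower. Of 12 microglia markers 6 rose, and their sum was 376 to 628 in WT, 854 and 1056 in Qk-KO replicates 1 and 2, and 3903 in replicate 3. With library type as a term 0 microglia markers were called by limma (0 also at an unadjusted p under 0.05), and the authors' deposited table calls 3. The median change of the microglia markers was 1.54, and 0.80 in the replicate 1 contrast. Of 8 precursor markers 2 fell, Ptprz1 and Sox6, and 6 were not called. With library size without ribosomal RNA 2 were called lower, and 0 with library size alone or with library type as a term. The sums were 732 to 1341 in WT and 359 to 702 in Qk-KO, and Ptprz1 went from 33.4 to 8.59 per kilobase. The median change of the list was -0.27, but 0.26 in the replicate 1 contrast, where 5 of the 8 values were positive. Ptprz1 and Sox6 were lower in that contrast too, at -1.36 and -0.74. Of 8 neuron markers 1 rose (12.5%, against 13.8% of all features), while the median change of the list was 0.05. The marker that rose was Tubb3 (a tubulin gene, 19.7 per kilobase in WT and 66.9 in Qk-KO). Tubb3 had log2 values of 9.16 to 9.86 in WT, whereas its Qk-KO values by replicate number were 9.88, 11.58 and 11.59. Its rise thus lay mostly in the low-ribosomal libraries, with a change of 0.38 in the replicate 1 contrast. Summed levels of the neuron list were 88.0 to 95.2 in WT and 122 to 218 in Qk-KO. These sums include Tubb3, which had the largest change of the list (1.51, beside the list median of 0.05). The higher sums therefore do not describe the other neuron markers. The part of these cell types in the changes of the sterol genes was not tested, and fewer cells of a type and less RNA per cell cannot be told apart in such samples.

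**Figure D2:**
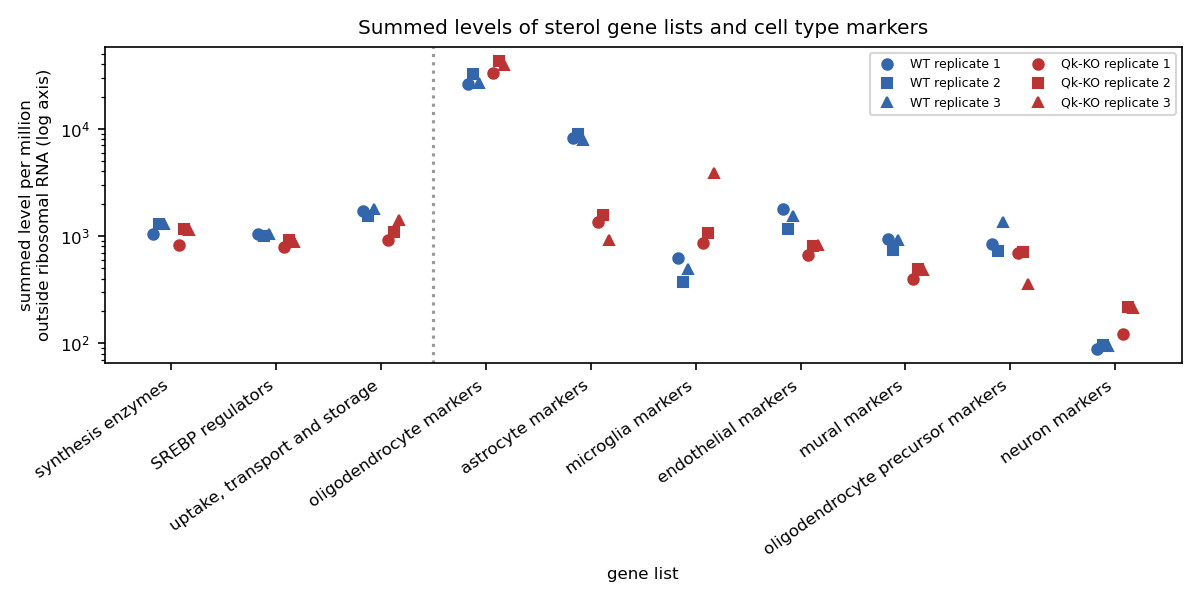
Summed level of each gene list per 1000000 of the signal outside ribosomal RNA (log axis) in each library. Blue is WT, red is Qk-KO, and symbols tell replicates apart. The astrocyte markers sum to 7817 to 8937 in WT and 921 to 1558 in Qk-KO, while the 18 synthesis enzymes sum to 1039 to 1300 and 829 to 1168.

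Per length, 3 of the 5 control genes (Srebf1, Insig1 and Srebf2) were among the 6 most abundant of the 30 genes in WT, while Scap (17.8) ranked 11 and Insig2 (6.77) ranked 24 on the scale given next. Srebf1 had the highest level, 72.9 ± 7.68 per kilobase of exon per 1000000 of the signal outside ribosomal RNA (SD, n = 3). Its WT range did not overlap that of Hmgcs1, the next, at 59.8 ± 7.42. Hmgcs1, Insig1 (57.7 ± 5.11) and Lrp1 (50.6 ± 7.22) overlapped one another in that sequence. Npc1 (40.9 ± 1.89) and Srebf2 (39.6 ± 1.81) followed below the range of Lrp1 and overlapped each other. A step without overlap separated Srebf2 from Msmo1, the most abundant late enzyme at 25.3 ± 4.66. From Msmo1 down to Mvk at 9.32 ± 0.391 each gene overlapped the next. The lowest levels were those of Scarb1 (3.84 ± 0.840) and Tm7sf2 (2.95 ± 0.262).

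The promoters of the genes on which the enzyme and regulator results turn are shown because SREBPs act at such sequences together with the factors NF-Y and Sp1. They are RefSeq sequences on build GRCm38.p6 (the assembly of mm10), from up to 250 bases before the annotated start and ending before the first transcribed base of GENCODE M21, in the gene's direction. Hmgcs1 lies at chr13:119690101-119690350 (plus strand), Dhcr7 at chr7:143822917-143823144 (plus), Sc5d at chr9:42264301-42264550 (minus), Insig1 at chr5:28071162-28071362 (plus), Hsd17b7 at chr1:169969242-169969455 (minus) and Ebp at chrX:8193513-8193762 (minus). Capitals mark matches on either strand to TCACNCCAC (a sterol regulatory element), CACGTG (an E-box), CCAAT (the NF-Y box) and GGGCGG (the GC box of Sp1).
Hmgcs1: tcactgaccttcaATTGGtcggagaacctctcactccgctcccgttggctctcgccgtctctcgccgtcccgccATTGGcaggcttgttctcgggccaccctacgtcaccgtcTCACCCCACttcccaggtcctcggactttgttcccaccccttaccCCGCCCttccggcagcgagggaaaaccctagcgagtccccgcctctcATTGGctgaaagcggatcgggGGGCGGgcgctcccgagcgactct
Dhcr7: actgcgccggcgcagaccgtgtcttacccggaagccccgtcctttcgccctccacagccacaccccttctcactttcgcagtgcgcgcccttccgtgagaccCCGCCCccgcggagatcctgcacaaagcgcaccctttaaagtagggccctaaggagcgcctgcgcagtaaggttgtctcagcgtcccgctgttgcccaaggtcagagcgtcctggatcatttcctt
Sc5d: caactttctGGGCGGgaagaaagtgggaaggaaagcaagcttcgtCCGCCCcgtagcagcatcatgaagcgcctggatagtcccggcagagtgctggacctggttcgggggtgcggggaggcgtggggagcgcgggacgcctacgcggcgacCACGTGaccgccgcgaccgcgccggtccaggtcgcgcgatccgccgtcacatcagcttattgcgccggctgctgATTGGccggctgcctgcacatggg
Insig1: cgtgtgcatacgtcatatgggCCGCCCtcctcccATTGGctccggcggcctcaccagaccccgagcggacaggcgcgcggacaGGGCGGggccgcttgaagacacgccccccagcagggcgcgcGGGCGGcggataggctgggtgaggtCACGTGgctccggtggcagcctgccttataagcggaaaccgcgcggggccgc
Hsd17b7: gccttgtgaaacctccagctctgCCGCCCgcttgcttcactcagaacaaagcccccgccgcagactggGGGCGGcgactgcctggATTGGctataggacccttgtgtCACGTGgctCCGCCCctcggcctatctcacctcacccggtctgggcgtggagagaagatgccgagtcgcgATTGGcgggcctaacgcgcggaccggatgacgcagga
Ebp: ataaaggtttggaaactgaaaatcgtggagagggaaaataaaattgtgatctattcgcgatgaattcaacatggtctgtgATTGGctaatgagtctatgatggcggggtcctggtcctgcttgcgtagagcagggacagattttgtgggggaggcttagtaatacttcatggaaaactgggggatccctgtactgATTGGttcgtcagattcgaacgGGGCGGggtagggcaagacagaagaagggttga

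Of the 30 genes, 24 have a promoter entry, and their windows of 250 bases were searched together with those of 10458 tested genes. CCAAT was found in 21 of the 24 genes (87.5%), against 40.2% of tested genes and 33.8% of all windows. GGGCGG was found in 22 of 24 (91.7%), against 63.8% of tested genes and 32.7% of all windows, and CACGTG in 5 (20.8%, against 9.70% and 6.02%). TCACNCCAC was found in Hmgcs1 only, 137 bases before its start, against 1.20% of tested genes and 1.05% of all windows. CCAAT was present for 6 of the 7 genes with a window that fell and 2 of the 3 that rose, so both directions held it. For Dhcr7 the CCAAT match lies in another of its 3 windows, not in the one printed. CACGTG was present for 3 of those 7 (Dhcr7, again outside the printed window, Insig1 and Sc5d) and 2 of those 3 (Hsd17b7 and Scap). A match describes letters in this window and nothing more.

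Of the 8 early enzymes, from acetyl-CoA to squalene, 0 were called by limma, against 28.6% of all features. Among the 8 enzymes 4 had an unadjusted p under 0.05 (Mvd, Idi1, Fdft1 and Mvk), and the authors' deposited table calls 1, Mvk. Their median change was -0.07, and 4 values were negative and 4 positive. Hmgcs1, the synthase that makes HMG-CoA, had log2 values of 12.18, 12.60 and 12.47 in WT replicates 1, 2 and 3 and of 12.06, 12.43 and 12.26 in Qk-KO replicates 1, 2 and 3. The groups overlapped, and the change was -0.17 ± 0.15 (adjusted p = 0.442). Acat2, which condenses acetyl-CoA, and Pmvk, phosphomevalonate kinase, changed by 0.03 ± 0.14 and 0.12 ± 0.15 (adjusted p = 0.893 and 0.596).

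Mvd and Idi1 were lower in every Qk-KO library than in any WT library without being called. Mvd, mevalonate diphosphate decarboxylase, had 8.79, 9.22 and 9.14 in WT, against 8.27, 8.73 and 8.70 in Qk-KO (-0.48 ± 0.18, adjusted p = 0.0762). In the replicate 1 contrast it was called (-0.78 ± 0.22, adjusted p = 0.0498). Idi1, the isomerase of the isoprenoid building blocks, had 9.47, 9.73 and 9.72 in WT, against 9.40, 9.27 and 8.82 in Qk-KO (-0.48 ± 0.17, adjusted p = 0.0718). Its lowest value was in Qk-KO replicate 3, and with the first Qk-KO library left out it was called (-0.60, adjusted p = 0.0285). Fdft1, squalene synthase, had 10.49, 10.85 and 10.86 in WT, against 10.15, 10.50 and 10.48 in Qk-KO, where the second Qk-KO value exceeds the lowest WT value (-0.36 ± 0.15, adjusted p = 0.110). Exons of Fdft1 overlap those of Ctsb on the opposite strand, and whether the authors' counting used strand is not stated. The same holds for Cyp51 (with Akap9), Npc1 (with Rmc1) and Srebf1 (with Rai1), and for Hmgcs1, Idi1, Lss and Scap with antisense or unclassified models.

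Mvk and Fdps had their highest values in the low-ribosomal Qk-KO libraries. Mvk, mevalonate kinase, was 8.86, 9.06 and 8.96 in WT, against 9.05, 9.54 and 9.86 in Qk-KO (0.52 ± 0.20, adjusted p = 0.0851). Replicate 1 lay within the WT range, at 0.09 from the WT mean, and without it Mvk was called (0.74, adjusted p = 0.00689). Fdps, farnesyl diphosphate synthase, was 9.48, 9.99 and 9.79 in WT, against 9.55, 10.23 and 10.34 in Qk-KO (0.28 ± 0.23, adjusted p = 0.371). Its value was -0.21 in the replicate 1 contrast, and without that library it was 0.53 and called (adjusted p = 0.0371). Fdps shares exons with an annotated gene model on the same strand, so its reads may be split.

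Of the 10 late enzymes, from squalene to cholesterol, 4 fell, 2 rose and 4 were not called. With the authors' scaling the largest change of the 30 genes was in Dhcr7, the reductase that makes cholesterol from its immediate precursor (chromosome 7, 143823145 to 143848410, plus strand, mm10). Its log2 values were 10.50, 10.86 and 10.89 in WT, against 9.43, 9.38 and 9.46 in Qk-KO. The Qk-KO values lay close together (SD 0.04), and all were far below the lowest WT value. The change was -1.33 ± 0.13, a level 2.51-fold lower (adjusted p = 0.000399). In the replicate 1 contrast it was -1.32 ± 0.19 (adjusted p = 0.0039), and the authors' deposited table gives -1.61 ± 0.19.

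Msmo1 and Sc5d fell by similar amounts. Msmo1, a methylsterol monooxygenase that acts in the removal of ring methyl groups (chromosome 8, 64718139 to 64733792, minus strand), was 11.24, 11.78 and 11.74 in WT, against 10.56, 10.90 and 10.70 in Qk-KO. The change was -0.86 ± 0.17 (adjusted p = 0.00815), and -1.03 ± 0.22 in the replicate 1 contrast (adjusted p = 0.0210). Sc5d, lathosterol oxidase, which acts just before Dhcr7 (chromosome 9, 42251595 to 42264256, minus strand), was 10.33, 10.90 and 10.79 in WT, against 9.71, 9.79 and 9.99 in Qk-KO. The change was -0.84 ± 0.17 (adjusted p = 0.00831), and -0.96 ± 0.22 in the replicate 1 contrast (adjusted p = 0.0277). In both genes WT replicate 1 was the lowest WT library, yet the groups did not overlap.

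Tm7sf2, a sterol reductase of the nuclear envelope and endoplasmic reticulum (chromosome 19, 6062821 to 6068373, minus strand), was the least abundant gene of the list. Its values were 7.84, 8.17 and 8.03 in WT, against 6.78, 7.58 and 7.48 in Qk-KO. The change was -0.73 ± 0.23 (adjusted p = 0.0459), and -1.23 ± 0.23 in Qk-KO replicate 1, the lowest library (adjusted p = 0.0124). The call ended without any one library except Qk-KO replicate 3 (adjusted p from 0.0504 to 0.130) and also with library size without ribosomal RNA (0.0925), without the filter (0.0889) and with number series as a term (0.0768). Tm7sf2 shares exons with Vps51 on the same strand, so its value is uncertain.

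Hsd17b7 and Ebp, which act between Nsdhl and Sc5d, rose. Hsd17b7, a ketosteroid reductase that completes demethylation (chromosome 1, 169949535 to 169969241, minus strand), was 9.29, 9.51 and 9.24 in WT, against 9.80, 9.98 and 9.81 in Qk-KO. The change was 0.52 ± 0.12, a level 1.43-fold higher (adjusted p = 0.0165). Ebp, the sterol isomerase (chromosome X, 8185329 to 8193512, minus strand), was 8.93, 9.26 and 9.21 in WT, against 9.64, 9.86 and 10 in Qk-KO. The change was 0.70 ± 0.15, a level 1.62-fold higher (adjusted p = 0.0103). All Qk-KO libraries exceeded all WT libraries for both genes. The call of Hsd17b7 ended without either WT replicate 1, WT replicate 3 or the second Qk-KO library (adjusted p = 0.0641, 0.068 and 0.0791), and that of Ebp in no such fit.

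The 4 uncalled late enzymes had smaller changes. Cyp51, lanosterol demethylase, was 10.52, 10.96 and 10.79 in WT, against 10.49, 10.84 and 10.92 in Qk-KO, and the groups overlapped almost completely (0.00 ± 0.16, adjusted p = 0.990). Sqle, squalene epoxidase, a rate-controlling enzyme, changed by -0.30 ± 0.16 (adjusted p = 0.189). Lss, lanosterol synthase, changed by -0.24 ± 0.14 (adjusted p = 0.240) and was lowest in Qk-KO replicate 1 (9.58, against 9.99 to 10.17 in WT). With library type as a term Lss was called lower (-0.51, adjusted p = 0.0492). Nsdhl, a sterol dehydrogenase, changed by -0.23 ± 0.14 (adjusted p = 0.237).

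**Figure D3:**
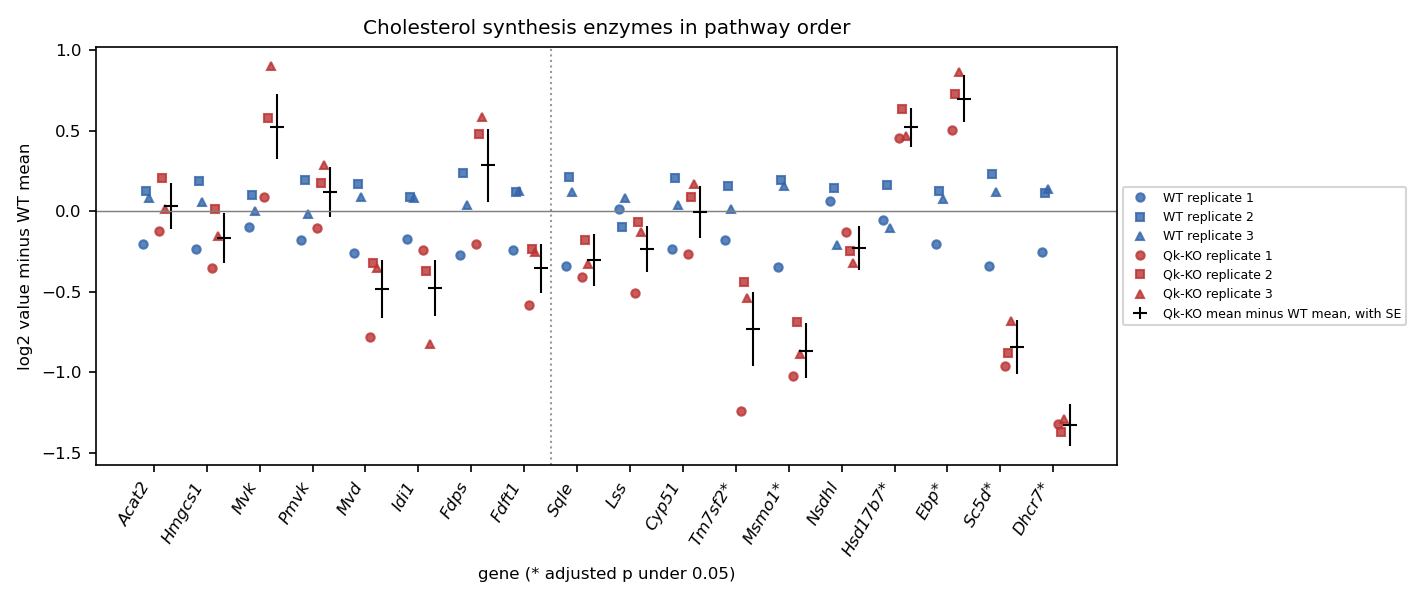
Deviation from the WT mean (log2) of the 18 synthesis enzymes in pathway order, with libraries as points (blue for WT, red for Qk-KO, a symbol per replicate) and the authors' scaling. Black is the change, Qk-KO mean minus WT mean, with the limma standard error of that change, and a dotted line stands before squalene epoxidase. Called genes, marked by a star, stand to the right of that line, from Tm7sf2 at -0.73 to Dhcr7 at -1.33, with Hsd17b7 at 0.52 and Ebp at 0.70 between them.

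The enzymes also shared a pattern within each group, which was noticed in these values and is described without a test. WT replicate 1 was the lowest WT library for 15 of the 18 enzymes (83.3%, against 33.5% of all features), with a median of -0.22 from the WT mean. Qk-KO replicate 1 was the lowest Qk-KO library for 15 of the 18 (83.3%, against 43.5%), with a median of -0.19 from the Qk-KO mean. Both held together for 13 enzymes (72.2%, against 16.7% of all features). The exceptions were Lss, Nsdhl and Hsd17b7 in WT and Idi1, Nsdhl and Dhcr7 in Qk-KO. Among the 12 other genes, WT replicate 1 was lowest for 5 and Qk-KO replicate 1 for 5 (41.7% each). These 2 libraries share the number 1 and the number series of their sample labels, a series that also holds Qk-KO replicate 2, which was the lowest Qk-KO library for 1 enzyme. Qk-KO replicate 1 is also the only Qk-KO library with a high ribosomal share (59.8%, against 2.23% and 1.88%). Its place among the Qk-KO libraries therefore cannot be told apart from library type. The oligodendrocyte marker sum was also lowest in replicate 1 of each group (26302 against 32347 and 26985 in WT, 33346 against 42625 and 39140 in Qk-KO). The astrocyte marker sum was 8201 in WT replicate 1, between 7817 and 8937, and was lowest in Qk-KO replicate 3 (921). The part of either cell type in the order of the enzymes was not tested.

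**Figure D4:**
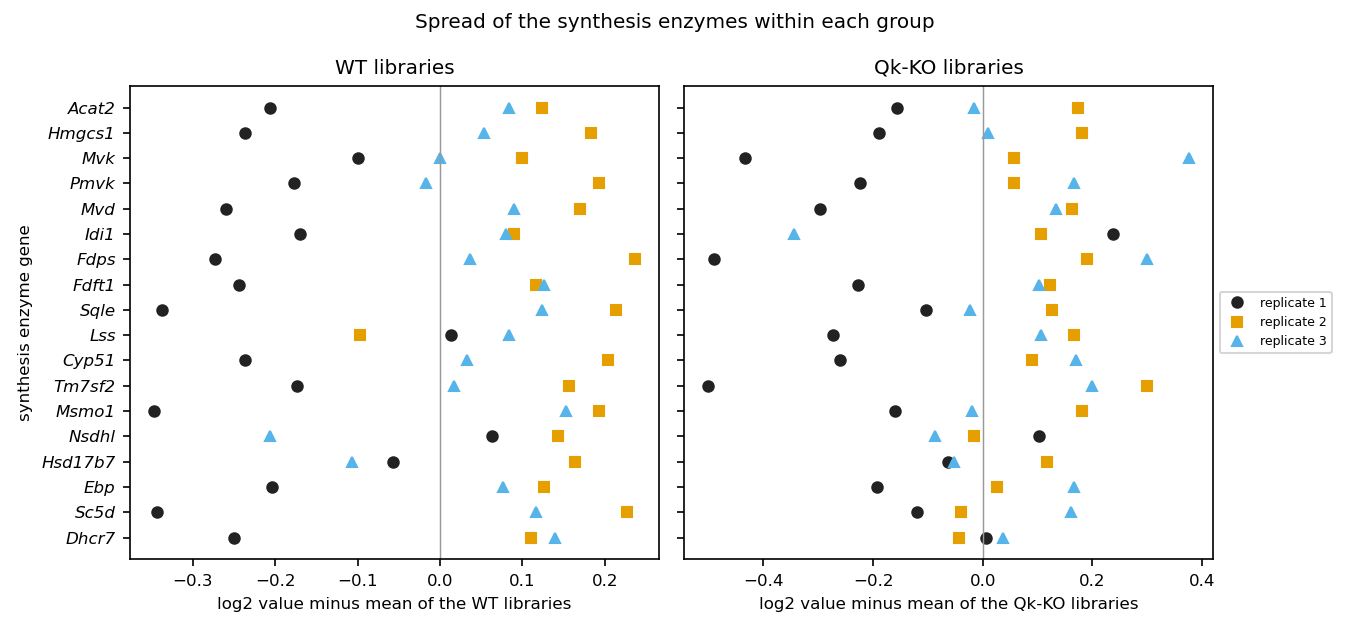
Log2 value minus the mean of its own group for the 18 synthesis enzymes, WT on the left and Qk-KO on the right, 1 symbol per replicate. Replicate 1 lies lowest for 15 of 18 enzymes in each panel.

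Of the 5 genes of SREBP control, Insig1 fell and Scap rose. Insig1, which retains SCAP in the endoplasmic reticulum and is itself an SREBP target (chromosome 5, 28071363 to 28078662, plus strand), was 11.62, 11.95 and 11.82 in WT, against 10.78, 11.11 and 11.02 in Qk-KO. The change was -0.83 ± 0.13, a level 1.77-fold lower (adjusted p = 0.00354), and -1.01 ± 0.16 in the replicate 1 contrast (adjusted p = 0.00624). Insig2, its paralog, was 8.65, 8.83 and 9.11 in WT, against 9.12, 9.02 and 8.71 in Qk-KO, with overlapping groups (0.09 ± 0.17, adjusted p = 0.718). Scap, the escort protein gene (chromosome 9, 110333288 to 110384950, plus strand), was 11.34, 11.43 and 11.34 in WT, against 11.73, 11.79 and 11.84 in Qk-KO, with no overlap. The change was 0.42 ± 0.10, a level 1.34-fold higher (adjusted p = 0.0176). Its call ended without either WT replicate 1, WT replicate 3 or the second Qk-KO library (adjusted p = 0.0683, 0.0704 and 0.077).

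Neither SREBP gene was called. Srebf1, whose products drive both fatty acid and sterol genes, was 13.14, 12.96 and 12.89 in WT, against 12.47, 12.77 and 12.68 in Qk-KO, lower in every Qk-KO library than in any WT library (-0.36 ± 0.13, adjusted p = 0.0795). Srebf2, the main activator of sterol synthesis, was 12.38, 12.52 and 12.50 in WT. It was 12.42 in Qk-KO replicate 1, within the WT range, and 11.94 and 11.86 in replicates 2 and 3 (-0.40 ± 0.16, adjusted p = 0.101). Without Qk-KO replicate 1 it was called (-0.57, adjusted p = 0.00568), while in that replicate alone it was -0.05 (adjusted p = 0.847). SREBP activity is set by cleavage, which these values do not measure.

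Of the 7 genes of uptake, transport and storage, 4 fell (57.1%, against 14.8% of all features) and 3 were not called. Lrp1, a large endocytic receptor that takes up lipoproteins (chromosome 10, 127538161 to 127621148, minus strand), was 14.17, 13.94 and 14.25 in WT, against 12.99, 12.89 and 13.22 in Qk-KO. The change was -1.08 ± 0.15, a level 2.12-fold lower (adjusted p = 0.00179), and -1.13 ± 0.17 in the replicate 1 contrast (adjusted p = 0.00564). Scarb1, a receptor for high-density lipoprotein, was 9.40, 9.02 and 9.56 in WT, against 8.93, 8.82 and 9.04 in Qk-KO, and the groups overlapped through WT replicate 2 (-0.39 ± 0.16, adjusted p = 0.103). Without that library Scarb1 was called (-0.55, adjusted p = 0.0373). Mylip, the ubiquitin ligase that degrades lipoprotein receptors, was 8.42, 8.05 and 8.26 in WT, against 8.23, 8.03 and 9.08 in Qk-KO, with the high value in replicate 3 (0.20 ± 0.27, adjusted p = 0.596).

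Npc1 and Npc2 pass cholesterol out of late endosomes and lysosomes together, and their values moved differently. Npc1, the membrane partner, was 13.18, 13.29 and 13.06 in WT, against 12.62, 12.68 and 12.64 in Qk-KO (-0.53 ± 0.12, adjusted p = 0.0129). Its call ended without the first WT or the second Qk-KO library (adjusted p = 0.0514 and 0.0545). Npc2, the soluble partner, was 11.16, 11.43 and 11.39 in WT, against 11.49, 12 and 12.81 in Qk-KO, with no overlap but a wide spread (0.77 ± 0.29, adjusted p = 0.0856). The authors' deposited table calls Npc2 higher (0.99 ± 0.33, adjusted p = 0.0126). Without Qk-KO replicate 1 it was called (1.07, adjusted p = 0.0107), and in that replicate alone it was 0.16 (adjusted p = 0.551). Its highest value was in Qk-KO replicate 3, the library with the highest microglia marker sum (3903), and the part of those cells was not tested.

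Stard4, a soluble sterol carrier, was 9.06, 8.92 and 9.04 in WT, against 8.49, 8.41 and 8.28 in Qk-KO, with no overlap (-0.61 ± 0.12, adjusted p = 0.00885). In the replicate 1 contrast it was -0.52 ± 0.17 and not called. The fit with library type as a term, which gives that same change, did not call it (adjusted p = 0.0751). Soat1, which esterifies cholesterol for storage (chromosome 1, 156424525 to 156474331, minus strand), was 10.92, 11.04 and 11.12 in WT, against 10.08, 9.97 and 10.73 in Qk-KO (-0.77 ± 0.20, adjusted p = 0.0226). Qk-KO replicate 3 lay nearest to WT. The call of Soat1 ended without any one of the WT libraries or the second Qk-KO library (adjusted p = 0.0588, 0.0673, 0.0841 and 0.0816), with library type as a term (0.0582) and without the filter (0.0569), but not in the replicate 1 contrast (-0.95 ± 0.14, adjusted p = 0.00531).

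**Figure D5:**
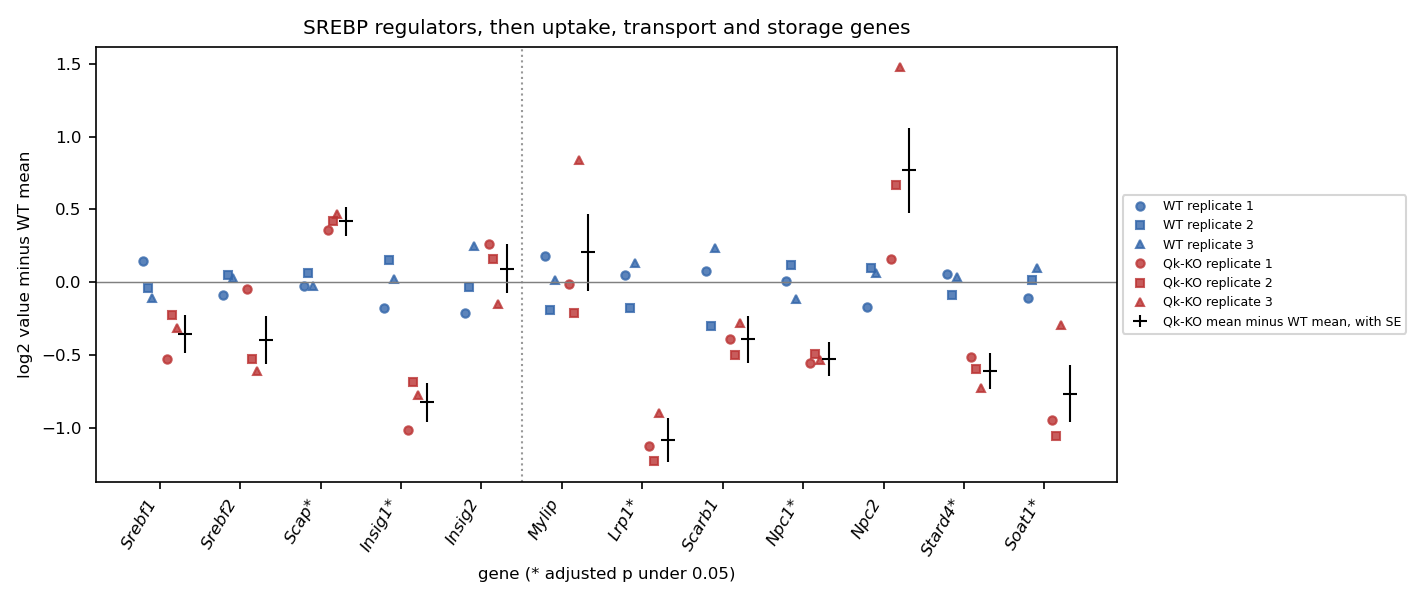
Deviation from the WT mean (log2) of the 5 genes of SREBP control (left of the dotted line) and the 7 genes of uptake, transport and storage, with libraries as points and the authors' scaling. Black is the change, Qk-KO mean minus WT mean, with the limma standard error of that change. Insig1 at -0.83 and Lrp1 at -1.08 lie below all WT points, Scap at 0.42 above them, and Npc2 spreads from 0.16 to 1.48.

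Of 48 further tested genes of the pathway and its surroundings, 7 fell (14.6%, against 14.8% of all features) and 9 rose (18.8%, against 13.8%), with a median change of 0.12. The share that fell was thus at the background. With library size alone 0 of these 7 falls were called and 11 genes rose, whereas with library size without ribosomal RNA 7 genes fell and 9 rose. Of 7 genes of isoprenoid branches and sterol reduction 0 were called by limma, with 0 at an unadjusted p under 0.05, 0 in the authors' deposited table and a range from -0.08 to 0.26. Of 9 genes of SREBP processing and sterol-regulated degradation 1 was called, a rise (11.1%, against 13.8% of all features). Mbtps1, the Golgi protease that makes the first cut in SREBPs, rose by 0.41 ± 0.11 (adjusted p = 0.0259). That call ended on leaving out WT replicate 1 or 3, or the second or the last of the Qk-KO libraries (adjusted p from 0.0528 to 0.102). Mbtps1 was not called in the replicate 1 contrast either (0.39). The fit with library type as a term, which gives that same change, did not call it (adjusted p = 0.117).

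Genes of oxysterol metabolism and sterol export went both ways, with 2 of 9 higher (22.2%, against 13.8% of all features) and 2 lower (22.2%, against 14.8%). Cyp27a1, a mitochondrial sterol hydroxylase, rose by 1.53 ± 0.11 (adjusted p = 0.000106), and Abcg1, a sterol exporter and a known target of liver X receptors, by 0.88 ± 0.13 (adjusted p = 0.00216). Cyp7b1, an oxysterol hydroxylase, fell by 1.96 ± 0.22 (adjusted p = 0.000643), and the exporter gene Abcg4 by 0.93 ± 0.22 (adjusted p = 0.0167). In the replicate 1 contrast the changes were 1.44, 0.88, -1.78 and -0.64, and that of Abcg4 was not called there. The fit with library type as a term, which gives that same change, did not call Abcg4 (adjusted p = 0.18). The call of Abcg4 ended also on leaving out WT replicate 2 or 3 or the second Qk-KO library (adjusted p = 0.0594, 0.068 and 0.0525).

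Of 8 other lipoprotein receptor genes and adaptors 2 rose and 3 fell. Vldlr, a receptor of very-low-density lipoprotein and reelin, rose by 0.85 ± 0.13 (adjusted p = 0.00243), whereas Lrp8, another reelin receptor, fell by 1.20 ± 0.18 (adjusted p = 0.00215), Lrp4 by 1.08 ± 0.12 (adjusted p = 0.000615) and the sorting receptor gene Sorl1 by 0.94 ± 0.16 (adjusted p = 0.00461). All 4 were called in the replicate 1 contrast as well. Of 15 genes of intracellular sterol transfer and ester cleavage 4 rose (26.7%, against 13.8% of all features) and 2 fell (13.3%, against 14.8%). Osbpl5, a lipid transfer protein gene of membrane contacts, rose by 1.42 ± 0.12 (adjusted p = 0.000234), and Nceh1, which cleaves cholesterol esters, by 1.02 ± 0.10 (adjusted p = 0.000381). Osbpl1a rose by 0.86 ± 0.18 (adjusted p = 0.0112), but was not called in the replicate 1 contrast (0.51, adjusted p = 0.107), nor with library type as a term (adjusted p = 0.109), nor without WT replicate 1 or 3 (adjusted p = 0.0506 and 0.0532). Gramd1b, which moves sterols from the plasma membrane to the endoplasmic reticulum, fell by 0.70 ± 0.13 (adjusted p = 0.00565).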

How the data were processed

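RNA of 6 oligodendrocyte libraries, 3 WT and 3 Qk-KO, was sequenced. Per the submitters' processing notes, the authors' tools include TopHat2 2.0.14 and FastQC as well as DESeq2 and featureCounts, on build mm10 (no order is given). No annotation, strand setting or read length is given in the sources used here. The authors' deposited table of 46983 features gives log2 values per library on the scale of a DESeq2 regularized log. Such values are shrunken for weakly expressed genes, so changes of low genes are understated. It also gives the authors' mean normalized count (a signal), and, per the file headers, their log2 fold change, the Wald score, and the p-value with its adjusted form.

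Features with a deposited mean normalized count of at least 20 were fitted with limma 3.58.1 in R 4.3.3 (a mean-variance trend, genotype as the only term) with Benjamini-Hochberg adjustment and a threshold of 0.05. In the 4 libraries of lower depth a mean of 20 is 8.94 to 12.3 reads. Read totals are estimates: all 4125 features with a mean of at most 1 were sums of whole-read steps within 1e-06, which gave each library's size factor. Summed levels and levels per kilobase are not read counts. They were back-transformed from the deposited log2 values, divided by each library's sum outside ribosomal RNA and scaled to 1000000. Levels per kilobase use GENCODE M21 exons, in which 46488 feature identifiers were found. The fit was tested on simulated data.

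The 30 genes, the marker lists and the pathway lists were chosen with earlier results of these data known. Of 49 further pathway genes 1, Ufd1, was not matched by symbol. The further genes named are, within each pathway list, those called with the smallest adjusted p, up to 4. Alternatives covered scaling, filter, library type, number series, replicate number, sample quality weights, each library left out, and the authors' deposited comparison. No pseudocount was varied, since the values were already logarithms.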

Additional observations from a re-analysis of the deposited data

How the results depend on the processing

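Over the 12 called genes and 16 alternatives, 153 of 192 values kept direction and call, 32 kept the direction without the call, and 7 changed direction, the 7 being with library size alone. The count of all called features, 4330, was 2447 with library size alone, 2258 with library type as a term, 2355 for Qk-KO replicate 1 alone, and 2370 (without Qk-KO replicate 2) to 5633 (without Qk-KO replicate 1) with 1 library left out. The 12 called sterol genes became 5 with library size alone and 7 to 16 with 1 library left out. The 9 lower genes became 0 with library size alone and 8 with library size without ribosomal RNA. The 3 higher genes became 5 with library size alone, with number series as a term, with quality weights and in the authors' deposited table, 0 with library type as a term and for Qk-KO replicate 1 alone, and 1 to 6 with 1 library left out. The estimation of the quality weights stopped before it converged. The 16 called further pathway genes became 11 to 22 over all alternatives. Their 7 falls became 0 with library size alone (7 with library size without ribosomal RNA), and their 9 rises 6 to 14 with 1 library left out.

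With library size alone these changes turned positive: Hmgcs1 0.89, Mvd 0.58, Idi1 0.58, Fdft1 0.70, Sqle 0.75, Lss 0.82, Cyp51 1.05, Tm7sf2 0.32, Msmo1 0.19, Nsdhl 0.83, Sc5d 0.21, Srebf1 0.70, Srebf2 0.66, Insig1 0.23, Scarb1 0.66, Npc1 0.53, Stard4 0.45, Soat1 0.29, Abcg4 0.13, Sorl1 0.12 and Gramd1b 0.35. With library type as a term and for Qk-KO replicate 1 alone, Acat2 was -0.13, Pmvk -0.11, Fdps -0.21 and Mylip -0.01. Cyp51 was 0.04 with library size without ribosomal RNA, 0.10 with number series, 0.06 with quality weights, and between -0.12 and 0.13 with 1 library left out (above 0 without WT replicate 2 or 3 or the first Qk-KO library). With 1 library left out Acat2 ranged from -0.07 to 0.11, Insig2 from -0.02 to 0.21 and Mylip from -0.11 to 0.41. The cause of these changes was not tested.

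The deviations of same-numbered libraries from their group means correlated at 0.104, 0.00462 and 0.0821. The same-numbered Qk-KO library was the best match for WT replicates 1 and 3, whereas WT replicate 2 correlated best with Qk-KO replicate 1 (0.0217). Correlations this small cannot decide whether the replicate numbers pair the libraries. A replicate block gave 4345 called features and 15 called sterol genes, adding Mvd, Fdft1 and Npc2. The shallower 4 libraries limit the precision for the lowest genes, such as Tm7sf2.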
